A study of Homo sapiens with 36 samples.

Results

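The 9 genes described here are WT1, SIX2, EYA1, PAX2, PAX8, SALL1, CITED1, OSR1 and LHX1, regulators of gene transcription that mark or maintain nephron progenitors in the developing kidney. They were chosen by name from 58219 genes listed for RNA and 43582 listed for ribosome footprints, after the Ensembl identifiers in 6 count tables were matched to GENCODE release 29. All 9 were listed in every table. WiT49 is an established cell line from an anaplastic Wilms tumor, a childhood kidney cancer whose anaplastic form responds poorly to chemotherapy. Cells received actinomycin D (actD), a DNA-binding drug that blocks transcription, at 2 nM, or its vehicle DMSO, for 6 h, 72 h or 2 weeks, and 3 libraries per group were made for total RNA and 3 for ribosome footprints, the stretches of messenger RNA that translating ribosomes shield from nuclease. At 2 weeks the cells had gone through 2 cycles of 7 days, each made of 3 days with drug or vehicle and 4 days in plain medium. All 36 libraries come from this 1 line, with no other line or primary tumor beside it. For the 6 RNA libraries of 2 weeks the title gives 1 treatment and the library name the opposite one, so the terms named actd and named dmso are used for them, taken from the library names, and each 2-week RNA difference is named actd minus named dmso. By the titles every such sign turns.

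Nephron progenitors form a cap of mesenchyme around the tips of the branching ureteric bud, where they either renew themselves or turn into epithelium and build nephrons. SIX2 and CITED1 mark the self-renewing cap, OSR1 marks the intermediate mesoderm that precedes it, SALL1, EYA1 and PAX2 act with SIX2 to keep the progenitors, and LHX1 and PAX8 come up as the first epithelial vesicles form. WT1 is a zinc finger factor needed for the mesenchyme to survive and to become epithelium, it stays on in podocytes, and it is a tumor suppressor gene lost in a share of Wilms tumors, whose blastema resembles the cap.

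On GRCh38, WT1 (ENSG00000184937.13) lies at chr11:32387775-32435630 on the minus strand, SIX2 (ENSG00000170577.7) at chr2:45005161-45009430 minus and PAX2 (ENSG00000075891.21) at chr10:100735603-100829941 plus. PAX8 (ENSG00000125618.16) lies at chr2:113215997-113278950 minus, SALL1 (ENSG00000103449.11) at chr16:51135975-51151367 minus, CITED1 (ENSG00000125931.10) at chrX:72301638-72307187 minus, OSR1 (ENSG00000143867.6) at chr2:19351485-19358653 minus and LHX1 (ENSG00000273706.4) at chr17:36936785-36944612 plus. All are protein-coding, and values cover all their exons, untranslated regions included. Exons of WT1 share 113 bases with WT1-AS on the opposite strand, those of PAX8 share 685 bases with PAX8-AS1, and those of CITED1 share 121 bases with PIN4 on the opposite strand and 679 bases with AL133500.1 on the same strand. LHX1 shares 367 bases with AC243773.1. Exons of EYA1 share 347 bases with AC015687.1 and 206 bases with AC022858.1, both on the opposite strand. Both RNA library kits named in the labels keep the strand, but use of strand in counting is not given in the sources used here, so reads from those bases could not be assigned to either gene.

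The stretch before the start of 3 of these genes is shown because they span the range of levels reported next: WT1, above the expression threshold in every vehicle library; SIX2, with at most 33 counts in a vehicle library; and PAX8, at 0 counts in several libraries. The sequences are RefSeq's (GRCh38.p14), cover the 150 bases that end 101 bases before RefSeq's start site (10, 123 and 72 bases outside the GENCODE gene for WT1, SIX2 and PAX8), lie at chr11:32435640-32435789, chr2:45009553-45009702 and chr2:113279022-113279171, all on the minus strand, and are written 5′ to 3′ with GC boxes in capitals.
WT1: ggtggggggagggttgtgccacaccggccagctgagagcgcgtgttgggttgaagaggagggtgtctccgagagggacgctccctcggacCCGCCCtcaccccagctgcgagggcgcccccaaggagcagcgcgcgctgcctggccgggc
SIX2: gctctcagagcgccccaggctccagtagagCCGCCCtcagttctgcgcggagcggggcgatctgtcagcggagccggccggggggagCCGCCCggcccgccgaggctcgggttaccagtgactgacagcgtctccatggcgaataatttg
PAX8: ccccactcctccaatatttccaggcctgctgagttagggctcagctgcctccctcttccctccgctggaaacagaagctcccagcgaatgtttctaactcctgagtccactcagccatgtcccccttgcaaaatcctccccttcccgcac
3 motifs were searched on both strands: the GC box GGGCGG, the TATA box TATAAA and GCGTGGGCG, the site bound by EGR factors and by WT1; none of these overlaps another here. The stretch of WT1 held 1 GC box, that of SIX2 held 2 and that of PAX8 none, and the other 2 motifs were found in none of the 3. Among 35116 RefSeq stretches of this length, 25.8% held a GC box, 6.30% a TATA box and 0.347% the EGR and WT1 site. GC content was 73.3% for WT1, 69.3% for SIX2 and 57.3% for PAX8, against a median of 56% over all stretches. They held 13, 16 and 3 CpG sites in the same order, against a median of 5. The RefSeq table held such stretches for 5 of the 9 genes.

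RNA libraries held 40221994 to 69240041 counts and footprint libraries 152556 to 1281039. Protein-coding genes took 52.9% to 76.3% of RNA counts and 2.12% to 40.4% of footprint counts. Mitochondrial ribosomal RNA took 24.6% to 32.3% of RNA counts in the actD libraries of 72 h and 15.5% to 22.5% in the DMSO libraries, so it moved with the treatment there. At 2 weeks it took 25.8% to 31.2% in the libraries named actd and 19.6% to 22.9% in those named dmso, while at 6 h it took 7.28% to 8.54% in both arms. Its part in the results was not tested. DMSO library 3 of 72 h was the deepest of its table with 67342802 counts, and it also stood apart for several of the genes below, which are therefore given with and without it.

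Before any drug response, WT1 alone among the 9 regulators was expressed by the threshold used, a level of at least 1 TPM (a transcript abundance, counts per base of exon scaled to the same sum in each library) in each of the 6 DMSO RNA libraries of 6 h and 72 h. This was 1 of 9 genes, against 50.5% of 19780 protein-coding genes. OSR1, LHX1, CITED1, PAX2 and SALL1 were detected at a low level, with over 3 counts in every vehicle library but not 1 TPM in each. SIX2, EYA1 and PAX8 were not above 3 counts in every vehicle library. In bulk RNA, a low level in all cells and a higher level in a few cells cannot be told apart.

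**Figure D1:**
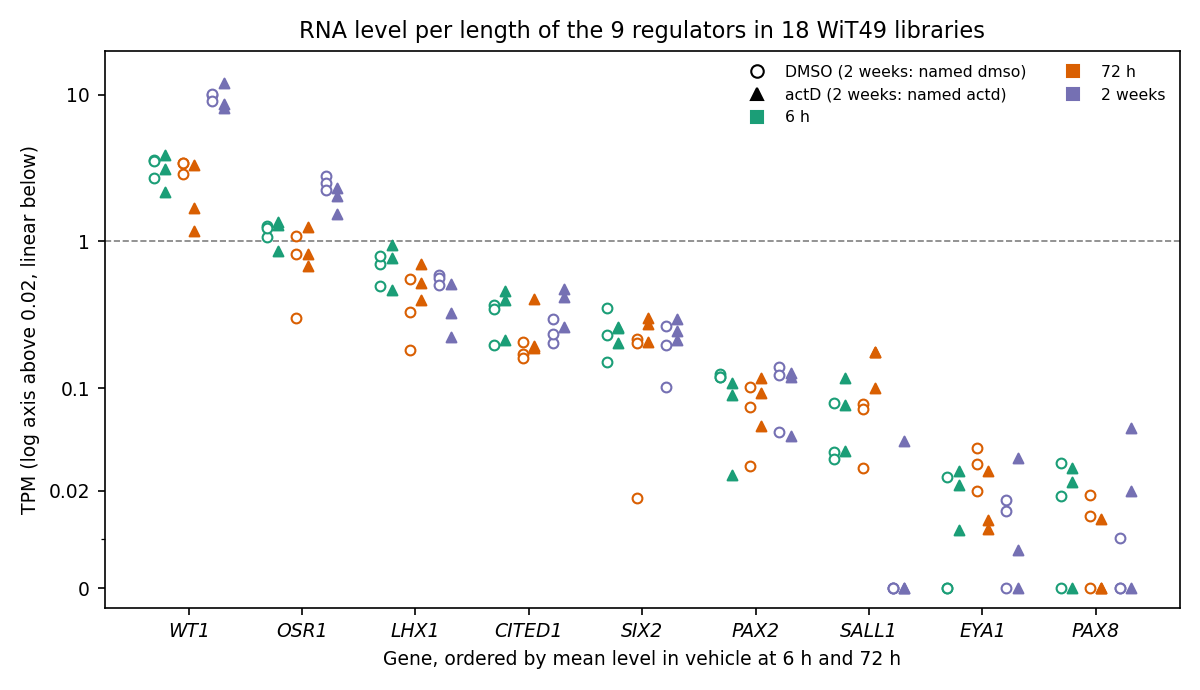
RNA level of the 9 regulators in each of the 18 RNA libraries, in TPM on an axis that is logarithmic above 0.02 and linear below, with time by colour, DMSO as open circles and actD as filled triangles (at 2 weeks, the library names). WT1 lies above the dashed line at 1 TPM in all 18 libraries, OSR1 lies on both sides of it, and the other 7 lie below it.

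WT1 held 3.62, 3.53 and 2.73 TPM in the DMSO libraries of 6 h and 2.86, 3.42 and 3.44 TPM in those of 72 h, from 322 to 857 counts. This level is above that of 56.0% of all protein-coding genes. Only 50.5% of those genes met the threshold, so the rank counts many genes not expressed. It does not make WT1 a gene of middling level among the expressed ones. OSR1, a zinc finger factor of the intermediate mesoderm, came next with 1.08, 1.28 and 1.24 TPM at 6 h and 0.820, 1.09 and 0.302 TPM at 72 h. It reached 1 TPM in 4 of the 6 vehicle libraries, and its lowest value was in DMSO library 3 of 72 h. LHX1, the LIM homeobox factor of early nephron epithelium, held 0.498, 0.698 and 0.791 TPM at 6 h and 0.330, 0.558 and 0.183 TPM at 72 h, again lowest in that library. From there down the levels fell below 0.4 TPM in every vehicle library. CITED1, a coactivator without DNA-binding domain that marks the cap, ranged from 0.161 to 0.366 TPM (8 to 31 counts).

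SIX2, the homeobox factor that holds progenitors in self-renewal, had 29, 16 and 33 counts in the DMSO libraries of 6 h and 13, 12 and 2 in those of 72 h, or 0.0184 to 0.350 TPM. Without DMSO library 3 of 72 h it would have been detected at a low level throughout. PAX2, a paired-box factor of the mesenchyme and the ureteric bud, ranged from 0.0293 to 0.125 TPM (5 to 45 counts) and SALL1, a zinc finger repressor that works beside SIX2, from 0.0287 to 0.0785 TPM (8 to 19 counts). EYA1 (ENSG00000104313.17 in the RNA counts), the phosphatase and coactivator that partners SIX2 and its relatives, had 0, 0 and 10 counts at 6 h and 10, 5 and 14 at 72 h, at most 0.0388 TPM. GENCODE release 29 holds another version of EYA1, ENSG00000104313.18 at chr8:71197433-71592025 minus, whose exon length was used for TPM. PAX8, the paired-box factor of early and later nephron epithelium, had 0, 11 and 6 counts at 6 h and 3, 0 and 7 at 72 h, at most 0.0309 TPM. Each of these last 2 genes was listed at 0 in 2 of the 6 vehicle libraries, which is not evidence of absence at these depths, since 0 counts allow up to 3, or 0.0433 to 0.0746 CPM (counts scaled by library size alone, with no length) in the vehicle libraries. In the 6 h table small values pile up near multiples of 8/3, so a few counts there may be fewer sequenced fragments than in the 72 h table. The floor of 3 counts takes each count as a fragment and may therefore be too low for the 6 h libraries.

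The order of mean levels at 6 h was WT1, OSR1, LHX1, CITED1, SIX2, PAX2, SALL1, PAX8 and EYA1. Neighbours in that order had separate ranges over the 3 libraries except CITED1 with SIX2 and PAX8 with EYA1. At 72 h the order was the same down to SALL1, with EYA1 then above PAX8, but only WT1 against OSR1 and EYA1 against PAX8 had separate ranges. The lead of WT1 over every other regulator held in both tables. Below it, 5 of 7 pairs of neighbours had separate ranges at 6 h and 1 of 7 at 72 h. The list of expressed regulators depended on the scale at its edge: OSR1 joined WT1 when 1 CPM with no length was asked for, and also when TPM was computed over protein-coding genes only, a choice made after the data were seen because protein-coding genes made up only 16.9% to 28.3% of TPM in RNA; 61.3% of protein-coding genes were expressed by that scale.

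Close relatives were higher than several of the low regulators (from a list chosen with earlier results of these data known). Among homeobox genes of its family, SIX2 reached at most 0.350 TPM in vehicle, whereas SIX4 held 4.66 to 7.80 and SIX5 1.32 to 8.70 TPM; SIX3 stayed at or below 0.0402 TPM. Among EYA genes, EYA1 and EYA2 stayed below 0.3 TPM, whereas EYA3 held 4.77 to 8.55 and EYA4 2.07 to 4.57 TPM. SALL2 held 8.61 to 14.5 TPM, against at most 0.205 for SALL3, 0.696 for SALL4 and 0.0785 for SALL1. In each of these families the ranges of the expressed relatives named lay wholly above that of the progenitor gene.

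CITED1 was likewise below both relatives on the list, CITED2 at 13.8 to 90.2 TPM and CITED4 at 1.95 to 10.5 TPM. OSR2 held 0.575 to 3.35 TPM and overlapped OSR1. LHX2 at 2.55 to 30.8 TPM and LHX4 at 1.40 to 3.10 TPM exceeded LHX1, while LHX9 did not exceed 0.0537 TPM. No PAX gene on the list was expressed: PAX3 was listed at 0 in all 6 vehicle libraries and PAX5 held 0.0130 to 0.0577 TPM. Cofactors were present, among them LDB1, the partner of LIM homeobox factors, at 18.1 to 39.1 TPM and WTAP, which binds WT1 and is a subunit of the m6A methyltransferase, at 17.1 to 27.6 TPM. Of the 29 relatives and cofactors, 20 were expressed in vehicle, against 50.5% of all protein-coding genes.

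**Figure D2:**
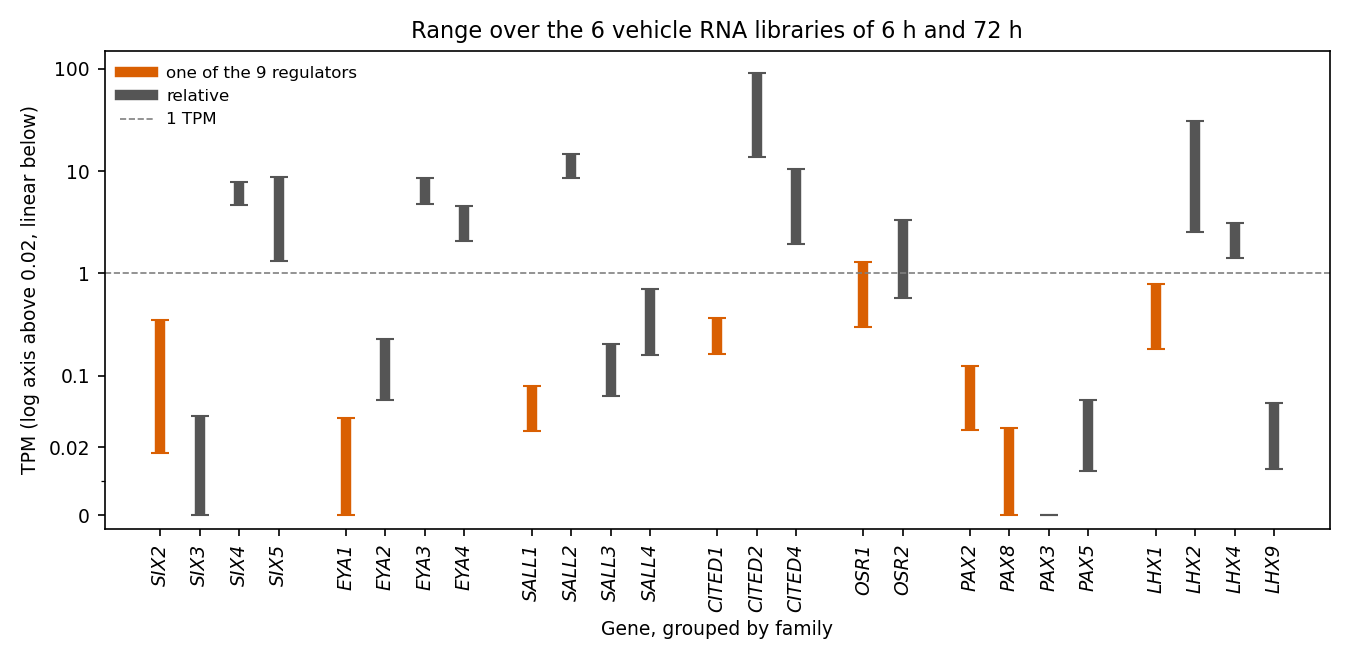
Lowest to highest TPM over the 6 vehicle RNA libraries of 6 h and 72 h for 8 of the regulators (orange) and relatives of theirs (grey), grouped by family, on an axis that is logarithmic above 0.02 and linear below. SIX2, EYA1, SALL1, CITED1 and LHX1 lie below the dashed line at 1 TPM, while SIX4, SIX5, EYA3, EYA4, SALL2, CITED2, CITED4, LHX2 and LHX4 lie wholly above it.

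Markers of the compartments around the progenitor state were checked against the tumor label of the line. Of 22 other cap mesenchyme genes, 9 were expressed in vehicle, led by COL2A1 (75.5 to 165 TPM), HOXA10 and HOXA11. GDNF, ITGA8 and MEOX1, defining genes of the cap, stayed below 0.8 TPM, and MEOX2 and FGF20 were listed at 0. NCAM1, also a marker of the progenitors, was expressed at 1.08 to 2.30 TPM. Of 14 podocyte genes 7 were expressed, led by PODXL, a coat protein of podocytes and other cells, at 34.2 to 57.2 TPM, but NPHS1 was at most 0.171 TPM. Of 19 stromal genes 11 were expressed, with COL3A1 at 163 to 325 TPM, VIM at 57.3 TPM or more and the stromal factor FOXD1 at 5.17 to 10.9 TPM, while COL1A2, MYOD1 and MYOG were listed at 0. Of 25 early nephron genes 10 were expressed, of 16 ureteric bud genes 4, and of 25 genes known from Wilms tumors 24. Of all protein-coding genes 50.5% met the same threshold, so list counts near that share say little about the compartments.

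Under actD no regulator passed the test at any time. The test was edgeR's quasi-likelihood test over all genes of a table, with an adjusted p-value under 0.05 as threshold. EYA1 and PAX8 failed its filter on low counts at every time and SALL1 at 2 weeks, so 7, 7 and 6 of the 9 regulators were tested in RNA at 6 h, 72 h and 2 weeks, and 0 were called in each. The background of calls was 0% of 22669 genes at 6 h, 0.00472% of 21195 at 72 h and 0% of 21137 at 2 weeks, so these counts say little about the regulators in particular. At an unadjusted p under 0.05, 0, 1 and 0 of them passed, against 8.21%, 13.1% and 8.93% of all genes, and DESeq2 called 0 at each time, against 0.869%, 2.87% and 0.894% of all genes. No adjusted p of DESeq2 was at hand for SIX2, PAX2 and CITED1 at 72 h. The same was true of some regulators at 2 weeks, SIX2 among them, so DESeq2 could not call these. The arms did not overlap for 0 of 7, 1 of 7 and 2 of 6 regulators, against 15.8%, 20.9% and 15.7% of all genes. Estimates were above 0 for 4 of 7, 6 of 7 and 4 of 6, against 53%, 51.4% and 46.8%, with medians of 0.002, 0.56 and 0.11 on the log2 scale against 0.02, 0.02 and -0.02 over all genes tested.

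**Figure D3:**
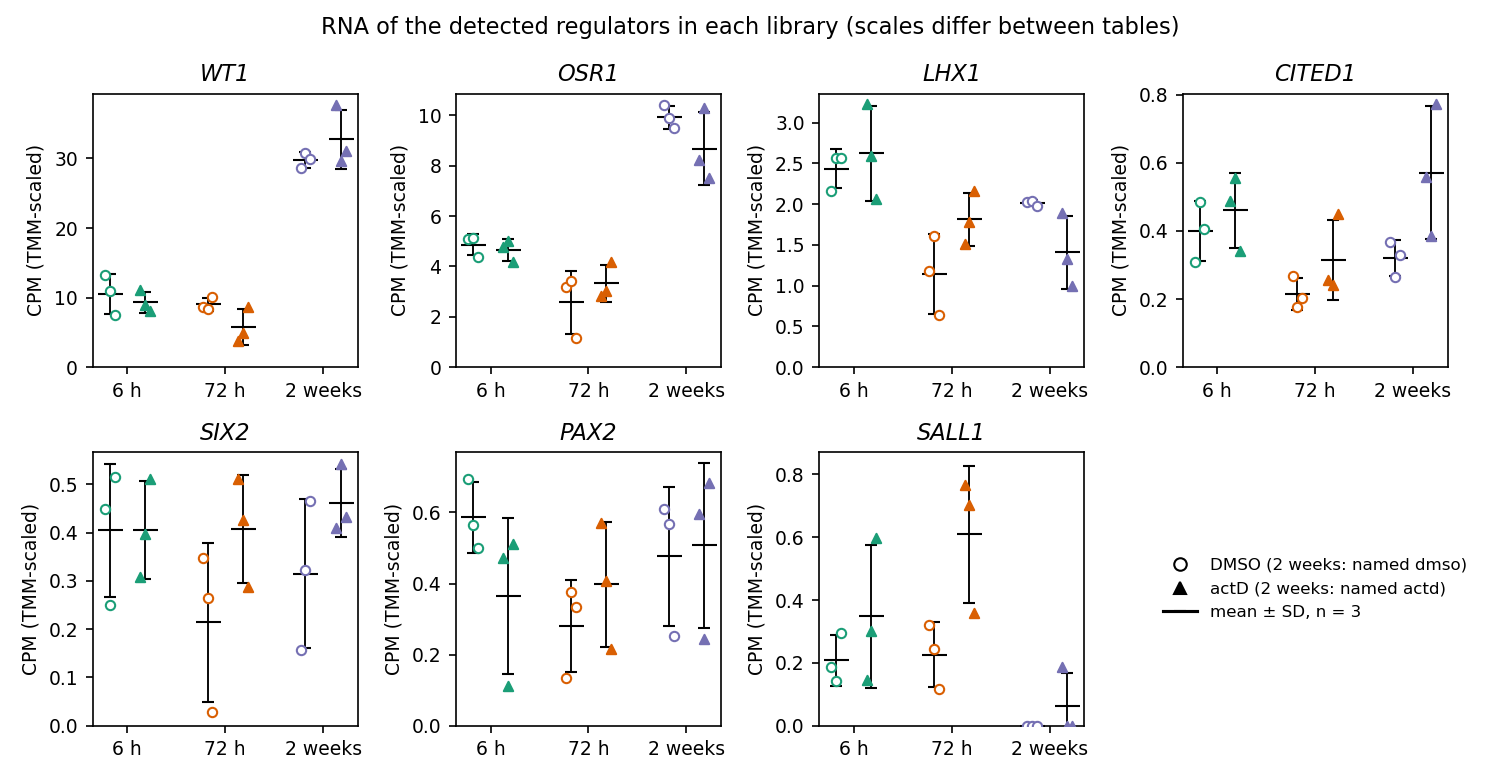
RNA of the 7 regulators that passed the filter at 1 or more times, in CPM scaled by trimmed mean of M-values (TMM), for each library of DMSO (open circles) and actD (filled triangles; at 2 weeks, the library names), with mean and SD of 3 libraries, on axes from 0. WT1 lies lower in 2 of 3 actD libraries at 72 h, and SALL1 lies higher in all 3.

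WT1 showed its largest difference at 72 h. Its levels, in CPM scaled by TMM, were 3.77, 4.90 and 8.64 in the actD libraries and 8.60, 8.34 and 10.1 in the DMSO libraries. Libraries 1 and 2 under actD lay well below all DMSO libraries, and library 3 lay inside their range. The means were 5.77 ± 2.55 and 9.01 ± 0.957 CPM (SD, n = 3), a log2 fold change of -0.64 (SE 0.33, 95% interval -1.42 to 0.13, adjusted p = 0.462), which did not pass. Without actD library 3 the estimate was -1.06 (adjusted p = 0.197), over 1.5 times the value from all libraries, without actD library 1 it was -0.42 (adjusted p = 0.794), and over all the alternatives it ran from -1.06 to -0.42 with adjusted p from 0.197 to 0.794.

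WT1 at 6 h held 11.0, 8.92 and 8.13 CPM under actD and 13.2, 11.0 and 7.48 CPM under DMSO, with overlapping arms and a log2 fold change of -0.17 (95% interval -0.69 to 0.34, adjusted p = 0.895). At 2 weeks it held 37.6, 29.6 and 31.1 CPM in the libraries named actd and 28.6, 30.8 and 29.9 CPM in those named dmso, a log2 fold change of 0.14 (95% interval -0.14 to 0.42, adjusted p = 0.756). The arms overlapped there too. WT1-AS, the antisense neighbour, held 1.59, 1.72 and 4.81 CPM under actD and 1.66, 3.05 and 4.90 CPM under DMSO at 72 h (log2 fold change -0.25, adjusted p = 0.870). It was highest in library 3 of both arms, and WT1 was highest in the same libraries.

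The LHX1 and OSR1 estimates at 72 h were lowest when 1 vehicle library, DMSO library 3, was left out. LHX1 held 1.51, 1.78 and 2.16 CPM under actD and 1.17, 1.61 and 0.637 CPM under DMSO, a log2 fold change of 0.68 (95% interval -0.24 to 1.59, adjusted p = 0.503) that was 0.37 without DMSO library 3. OSR1 held 2.81, 3.03 and 4.18 CPM under actD and 3.18, 3.43 and 1.14 CPM under DMSO, 0.38 on the log2 scale (95% interval -0.64 to 1.39, adjusted p = 0.738) and 0.01 without that library. The arms of both genes overlapped. SIX2 followed the same pattern, with 26, 23 and 16 counts under actD against 13, 12 and 2 under DMSO, and its log2 fold change of 1.01 (95% interval -0.66 to 2.67, adjusted p = 0.578) was 0.41 without that library. Its counts did not overlap between the arms, but in CPM the lowest actD library (0.288) lay below the highest DMSO library (0.347). Other omissions raised these estimates. LHX1 was 1.01 and OSR1 0.63 without DMSO library 2, and SIX2 was 1.53 without DMSO library 1.

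At 6 h the same 3 genes lay close together in both arms. OSR1 held 4.75, 5.01 and 4.17 CPM under actD and 5.08, 5.14 and 4.38 CPM under DMSO, a log2 fold change of -0.07 (95% interval -0.44 to 0.31). LHX1 held 3.23, 2.59 and 2.06 CPM under actD and 2.16, 2.57 and 2.57 CPM under DMSO, 0.11 (95% interval -0.40 to 0.62). SIX2 had 19, 25 and 30 counts under actD and 29, 16 and 33 under DMSO, with an estimate of 0.00 (95% interval -0.95 to 0.95). The intervals of OSR1 and LHX1 at this time exclude a change of 2-fold in either direction; that of SIX2 nearly reaches it.

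SALL1 was the regulator with the smallest p. It had 39, 38 and 20 counts under actD at 72 h and 12, 11 and 8 under DMSO, so every actD library lay above every DMSO library; of all genes tested, 10.5% were arranged that way at 72 h. The means were 0.609 ± 0.218 and 0.227 ± 0.103 CPM (SD, n = 3), a log2 fold change of 1.46 (SE 0.49, 95% interval 0.31 to 2.61). By edgeR's quasi-likelihood test it reached 0.0192 unadjusted and an adjusted p = 0.309, and did not pass. It ran from 1.10 to 1.77 over the alternatives, with adjusted p from 0.208 to 0.680, and rests on 8 to 39 counts per library. The 1.10 came without DMSO library 3, with an unadjusted p of 0.0531 by edgeR. That p was also above 0.05 without actD library 1 (0.0706) or 2 (0.0599) and in 1 edgeR fit over the 18 RNA libraries (0.109). It stayed under 0.05 without actD library 3, DMSO library 1 or DMSO library 2. At 6 h SALL1 had 9, 19 and 35 counts under actD and 12, 9 and 19 under DMSO (log2 fold change 0.74, adjusted p = 0.805; 0.11 without actD library 3). At 2 weeks it had 10 counts in 1 library named actd and 0 in the other 5.

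At 2 weeks CITED1 and LHX1 were the regulators whose groups did not overlap. CITED1 held 0.557, 0.384 and 0.773 CPM in the libraries named actd and 0.366, 0.265 and 0.330 CPM in those named dmso (log2 fold change 0.82, 95% interval -0.15 to 1.79, adjusted p = 0.607). PIN4, whose exons overlap those of CITED1 on the other strand, was also higher in all 3 libraries named actd, with 28.6 to 29.8 CPM against 23.0 to 28.3 CPM; its part in the CITED1 counts was not tested. LHX1 held 1.89, 1.33 and 1.00 CPM in the libraries named actd and 2.02, 2.04 and 1.98 CPM in those named dmso, -0.51 on the log2 scale (95% interval -1.14 to 0.11, adjusted p = 0.616) and -0.32 without library 3 named actd. The antisense gene AC243773.1 was listed at 0 in all 18 RNA libraries. Of all genes tested at 2 weeks, 7.86% were higher and 7.83% lower without overlap.

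In CPM scaled by TMM, the arms of the remaining regulators and times overlapped. CITED1 had 30, 35 and 20 counts under actD and 20, 31 and 26 under DMSO at 6 h (log2 fold change 0.21), and 13, 13 and 25 against 10, 8 and 14 at 72 h (0.56, and 0.21 without actD library 3). PAX2 had 29, 7 and 30 counts under actD and 45, 36 and 32 under DMSO at 6 h (log2 fold change -0.69, adjusted p = 0.790). Its counts did not overlap there, but in CPM the highest actD library (0.511) lay above the lowest DMSO library (0.499), and without actD library 2 the estimate was -0.26. At 72 h PAX2 had 29, 22 and 12 counts against 5, 17 and 23 (0.47, adjusted p = 0.721), with 0.11 without actD library 1, 0.15 without DMSO library 1 and 0.76 without actD library 3. At 2 weeks, SIX2 had 22, 31 and 19 counts in the libraries named actd and 9, 17 and 24 in those named dmso (0.55, with 0.23 and 0.95 without libraries 1 and 3 named dmso), PAX2 had 32, 14 and 30 against 35, 30 and 13 (0.08), and OSR1 held 8.23, 10.3 and 7.53 CPM against 10.4, 9.89 and 9.48 CPM (-0.19, adjusted p = 0.732).

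EYA1 and PAX8 stayed too low for the filter with or without drug. With every gene of at least 1 count in a table kept, both could be tested at each time and neither was called (adjusted p = 0.689 to 0.995 by edgeR, 0 of 6 at an unadjusted p under 0.05). EYA1 had 11, 9 and 6 counts under actD at 6 h and 10, 5 and 4 at 72 h. At 2 weeks it had 0, 15 and 3 in the libraries named actd and 6, 0 and 7 in those named dmso. PAX8 had 9, 0 and 9 counts under actD at 6 h and 0, 4 and 0 at 72 h. At 2 weeks it had 0, 19 and 6 in the libraries named actd and 0, 3 and 0 in those named dmso. Neither gene exceeded 0.06 TPM in any of the 18 RNA libraries.

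**Figure D4:**
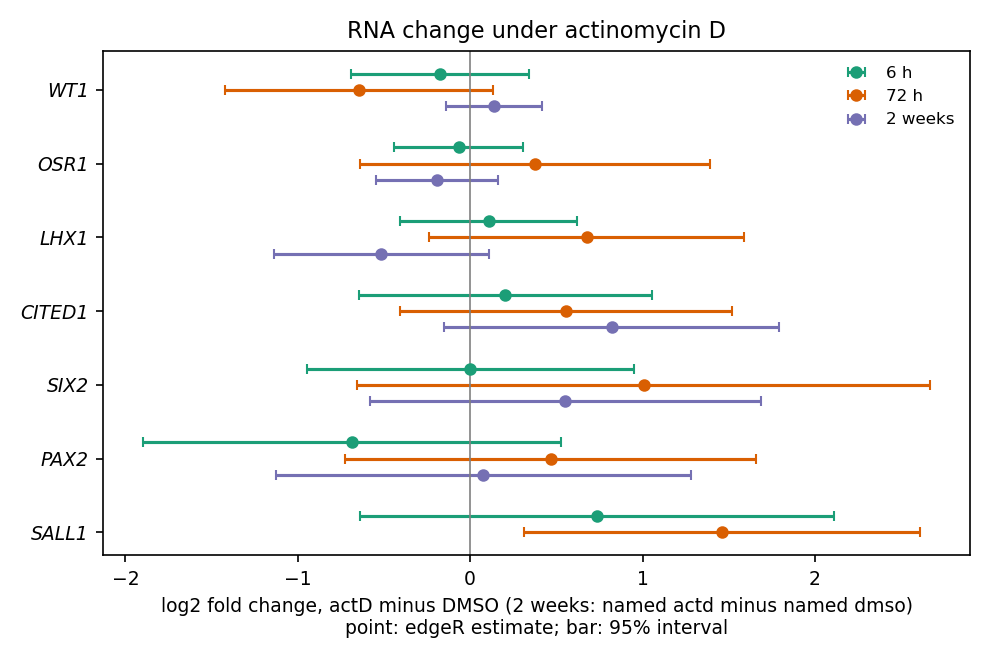
Log2 fold change of RNA by edgeR, actD minus DMSO (named actd minus named dmso at 2 weeks), for the 7 regulators that passed the filter, by time. The 95% interval was computed from the F statistic of edgeR's test. SALL1 failed the filter at 2 weeks. The interval lies off 0 for SALL1 at 72 h only, before adjustment over all genes.

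Whether the effect at 72 h differed from that at 6 h was tested as an interaction over the 12 RNA libraries of those times. Of 8 regulators tested (EYA1 passed the filter on the joined tables) edgeR called 0, against 0.0165% of 24251 genes; 0 had an unadjusted p under 0.05, against 8.02% of all genes, and DESeq2 called 0, against 0.664%. The interaction was -0.48 for WT1 (95% interval -1.42 to 0.46, adjusted p = 0.820) and 0.69 for SALL1 (95% interval -1.06 to 2.44, adjusted p = 0.867). Leaving out 1 library at a time or changing the settings gave -0.86 to -0.25 for WT1 and 0.31 to 1.34 for SALL1. Larger estimates with wider intervals came from genes of few counts: -2.11 for EYA1 (95% interval -5.09 to 0.87), 1.13 for PAX2 (-0.58 to 2.84) and 0.97 for SIX2 (-0.90 to 2.85). LHX1, OSR1 and CITED1 stood at 0.55, 0.43 and 0.34, and the lowest adjusted p of the 8 was 0.734. The larger SALL1 estimate at 72 h was therefore not shown to differ from that at 6 h.

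WT1 and OSR1 stood higher at 2 weeks than at the earlier times, in both groups of libraries. WT1 held 8.18 to 12.1 TPM in the 6 libraries of 2 weeks, against 2.18 to 3.87 TPM in the 6 of 6 h and 1.19 to 3.44 TPM in the 6 of 72 h. OSR1 held 1.53 to 2.79 TPM, against 0.868 to 1.37 and 0.302 to 1.25 TPM. Of 11514 protein-coding genes with at least 1 CPM in all 18 RNA libraries, 2.55% were likewise higher in all 6 libraries of 2 weeks than in all 12 earlier ones. WT1-AS also stood at 20.7 to 24.3 CPM at 2 weeks against 1.59 to 4.90 CPM before. LHX1, CITED1, SIX2 and PAX2 showed no such step: at 2 weeks they held 0.222 to 0.590, 0.204 to 0.475, 0.101 to 0.294 and 0.0469 to 0.139 TPM, inside their earlier ranges or overlapping them. SALL1 had 0 counts in 5 of 6 libraries at 2 weeks. Each time has its own table, and the cells of 2 weeks went through cycles. Time, culture and processing therefore cannot be told apart, and no test was made.

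The genes most like WT1, by the correlation of log2(CPM + 1) over 18 RNA libraries after each table's mean was taken off, among 11514 protein-coding genes, were FAM129A and DOCK11. FAM129A, a stress-responsive cytoplasmic protein also called NIBAN1, had a Pearson correlation of 0.936 and a Spearman correlation of 0.915, and 0.860, 0.981 and 0.640 within 6 h, 72 h and 2 weeks. DOCK11, an exchange factor for the GTPase CDC42, had 0.925 and 0.895. The libraries share tables and depth, and both genes were picked as the highest of many. At 72 h DOCK11 held 10.8, 11.0 and 23.3 CPM under actD and 25.7, 28.9 and 33.3 CPM under DMSO, with library 3 highest in each arm as for WT1.

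None of the gene lists around the regulators held a gene called in RNA at any time by edgeR: 0 of 134, 0 of 128 and 0 of 129 genes tested at 6 h, 72 h and 2 weeks, with 13, 17 and 20 at an unadjusted p under 0.05 (8.21%, 13.1% and 8.93% of all genes). DESeq2 called 0, 5 and 1 of them, against 0.869%, 2.87% and 0.894% of all genes. At 72 h, 2 of 25 relatives and cofactors, 3 of 18 cap genes, 2 of 21 early nephron genes, 2 of 12 podocyte genes, 2 of 16 stromal genes, 1 of 12 ureteric bud genes and 5 of 24 Wilms tumor genes had an unadjusted p under 0.05, against 13.1% of all genes. The Wilms tumor genes had the lowest median log2 fold change, -0.30, with 18 of 24 below 0. Podocyte genes followed with -0.26 and 8 of 12 below 0. All genes tested had a median of 0.02, and 51.4% of them were above 0. The Wilms tumor genes leaned the same way at the other times. Of 25 tested, 18 were below 0 at 6 h and 18 at 2 weeks (by library name). PODXL had 6025, 6331 and 5902 counts under actD and 8502, 10534 and 13979 under DMSO at 72 h, without overlap, with a log2 fold change of -0.96 (SE 0.18, adjusted p = 0.199 by edgeR). This missed the threshold in the fit of 6 libraries and passed it with DESeq2 (adjusted p = 0.000186) and in 1 edgeR fit over 18 libraries (adjusted p = 0.00132). Mitochondrial ribosomal RNA moved with the same arms. The other 4 calls of DESeq2 at 72 h were BASP1, a corepressor of WT1 (log2 fold change 0.94), the WNT inhibitor DKK1 (1.65), the growth factor BMP7 (-1.01) and LHX9 (2.52), and at 2 weeks its call was GFRA1, the GDNF coreceptor (-0.90, named actd lower); these 5 were named after the calls were seen.

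Among other named genes at 72 h, ACTN4, an actin crosslinker, had an estimate of -1.05 (adjusted p = 0.331) and TRIM28, a corepressor with germline variants known in Wilms tumor, -0.97 (adjusted p = 0.352). CITED2 stood at 0.52 (adjusted p = 0.711), LDB1 at 0.05 and WTAP at 0.17. COL2A1 stood at -0.02, HOXA10 at -0.25 and HOXA11 at -0.36 among cap genes, and CCND1 at 0.04, NOTCH2 at 0.27 and HES1 at -0.29 among early nephron genes. COL3A1 stood at 0.17, VIM at -0.40 and COL1A1 at 0.46, GFRA1 at -0.23, KRT19 at 0.26 and HOXB7 at 0.25, TJP1 at -0.72, and IGF2BP1 at -0.40 and LIN28B at 0.15. None of these passed in the fit of the 72 h libraries, and ACTN4 passed in the fit over 18 libraries (adjusted p = 0.0355). That fit called 4.89% of 24803 genes, among them 9 list genes: PODXL, BASP1, BMP7, DKK1, LHX9, ACTN4, FOXD1 (0.64, adjusted p = 0.0301), the checkpoint kinase CHEK2 (-0.57, adjusted p = 0.0291) and HOXC11 (0.60, adjusted p = 0.0487).

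Footprints of the 9 regulators were scarce. Over the 18 footprint libraries they summed to 35 counts, of which WT1 held 24, OSR1 5, LHX1 3, CITED1 2 and PAX2 1, and SIX2, EYA1, PAX8 and SALL1 held 0. The WT1 sum was above that of 66.2% of 19736 protein-coding genes, whose median was 5. WT1 had 5, 2 and 2 footprints in the actD libraries of 2 weeks and 3, 4 and 2 in the DMSO libraries, so it was seen in all 6. At 72 h it had 2 in actD library 3 and 2 in DMSO library 1, and at 6 h 2 in DMSO library 2, with 0 in the other libraries of those times. The OSR1 and LHX1 footprints came from actD libraries of 72 h: 1 and 4 for OSR1 in libraries 1 and 3, and 3 for LHX1 in library 3.

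No regulator passed the filter in a footprint table, so 0 of 9 were tested there for footprints or for translational efficiency, the footprint level relative to RNA. With every gene of at least 1 count kept, 1, 4 and 3 regulators were tested in footprints at 6 h, 72 h and 2 weeks and 0 were called (adjusted p = 0.537 to 0.988 by edgeR, 0 of 8 at an unadjusted p under 0.05). Of the genes that could be tested, 0% of 1212, 3.79% of 2426 and 0% of 1598 were called in footprints at 6 h, 72 h and 2 weeks. A library with 0 counts allows up to 3, which is 2.34 to 19.7 CPM here, so footprints of SIX2, EYA1, PAX8 and SALL1 were not detectable at this depth, which does not show that they are absent. Among the surrounding lists, TRIM28 alone was called in footprints by edgeR with all libraries, at 72 h, with 26, 6 and 31 counts under actD and 80, 42 and 6 under DMSO (log2 fold change -2.12, adjusted p = 0.0498 by edgeR). DESeq2 called it too (adjusted p = 0.0269), as did edgeR with every gene of at least 1 count kept (adjusted p = 0.0389). The call was lost with library totals (adjusted p = 0.277), with a replicate block (adjusted p = 0.142) and without any 1 of the 6 libraries (adjusted p = 0.0507 to 0.232), while the fold change ran only from -2.31 to -1.80 over the 10 alternatives. At 6 h DESeq2 called TJP1, a tight junction protein (-1.61, adjusted p = 0.0262), against 0.825% of genes; at 72 h it called 4.41% of genes. Without actD library 3 of 72 h edgeR called TJP1 (-2.46, adjusted p = 0.0409) and XPO5, the exporter of precursor miRNAs (-1.48, adjusted p = 0.0436), and not TRIM28.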

How the data were processed

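For each assay and time the authors deposited 1 table of expected counts (an estimated count per gene, made from reads with the tools named by the submitters' processing notes), 1 column per library. HISAT2, StringTie and hg38 are named by the submitters' processing notes, with no versions. No value needed rounding; all 36 value columns were used. Small values of the RNA tables of 6 h and 2 weeks pile up at multiples of about 8/3: values of 3 were 1.99, 0.922 and 2.01 times as frequent as the mean of 2 and 4 at 6 h, 72 h and 2 weeks. Of the gene identifiers, 99.4% matched GENCODE release 29 without version. TPM was computed here over all genes with the union length of exons, CPM with TMM scaling. IGF2 had no unique symbol match and is not reported, and the separate values of some other list genes are not reported here.

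Each table was fitted alone with edgeR 4.0.16 (R 4.3.3): quasi-likelihood test, two-sided, TMM, filterByExpr, Benjamini-Hochberg over all genes tested, called at an adjusted p under 0.05. DESeq2 1.42.0 was an alternative, beside library totals, a looser filter, a replicate block, leaving out each library and 1 fit over the 18 RNA libraries. The fits were run on simulated data, with large changes planted in genes above the median level. That run does not show the power for regulators of few counts. Translational efficiency was the assay-by-treatment interaction. The labels name 2 kits for extraction and 2 for RNA libraries without assigning them. No source says that replicates are separate cultures, so p-values measure the spread between these libraries, which may be technical; pairs of libraries within a group differed beyond sampling noise (chi-square divided by its degrees of freedom, at least 7.39). Floors and intervals cover counting error or library spread only. The 9 regulators and all gene lists were chosen with earlier results of these data known. All 9 are named throughout; from each other list the 3 genes with the highest mean TPM in vehicle and any gene called with all libraries by edgeR are named, and further genes called by an alternative, relatives and defining markers were named after their values were seen.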

Additional observations from a re-analysis of the deposited data

How the results depend on the processing

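For the 9 regulators, 0 were called in every comparison under every alternative run, in RNA, footprints, translational efficiency and the interaction of 72 h with 6 h, so no alternative changed a call. In footprints they were tested only with the looser filter, so the 0 there says nothing of stability. Nor does the 0 of DESeq2 for regulators that had no adjusted p from it. Replicate numbers did not pair the libraries throughout. Same-numbered actD and DMSO libraries had correlations of their deviations from -0.14 to 0.23 in RNA (3 of 9 above 0.1) and from -0.74 to 0.42 in footprints (2 of 9). In RNA at 72 h, however, same-numbered pairs stood at 0.085, 0.23 and 0.15, and pairs of unlike number at -0.15 to -0.024. Between the assays, libraries sharing arm and number had correlations of -0.041 to 0.43, with 12 of 18 above 0.1. A replicate block left 0 regulators called at 6 h, 72 h and 2 weeks and moved the count of list genes called in footprints at 72 h from 1 to 0. In RNA at 72 h it took edgeR's unadjusted p from 0.0921 to 0.0373 for WT1 and from 0.0192 to 0.00652 for SALL1. Regulators with an unadjusted p under 0.05 went from 1 to 2 of 7 there. The adjusted p of WT1 and SALL1 with the block stood at 0.327 and 0.275.

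The number of regulators expressed in vehicle, 1, became 0 at 5 TPM, 2 at 1 CPM with no length and 2 with TPM over protein-coding genes, and stayed at 1 at 0.5 TPM, with the longest coding transcript and without any single library. Library totals in place of TMM moved the median of all genes at 2 weeks from -0.02 to -0.18 and turned SIX2 at 6 h to -0.0099, WT1 at 2 weeks to -0.0095 and PAX2 at 2 weeks to -0.093. Titles in place of library names left 2 of 6 regulators above 0 instead of 4. Dividing the counts of 6 h and 2 weeks by 8/3, chosen after seeing the data, changed no call. Leaving out 1 library at a time gave, for estimates that turned, WT1 at 6 h -0.37 to 0.021, SIX2 at 6 h -0.26 to 0.21, OSR1 at 6 h -0.14 to 0.0023, LHX1 at 6 h -0.066 to 0.25 and PAX2 at 2 weeks -0.22 to 0.42.

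Among list genes, DESeq2 called 5 in RNA at 72 h, 1 at 2 weeks, 1 in footprints at 6 h and 3 in the interaction (PODXL, BASP1 and DKK1), and 1 fit over the 18 RNA libraries called 9 at 72 h, against 0 in each. Library totals gave 1 in RNA at 2 weeks and 0 in footprints at 72 h, where leaving out 1 library gave 0 to 2. COL2A1 at 72 h turned to 0.0010 with a replicate block and 0.0096 in the fit over 18 libraries. At 72 h, leaving out 1 library at a time gave CITED2 -0.53 to 0.86, LDB1 -0.090 to 0.29, COL2A1 -0.13 to 0.16, HOXA11 -0.93 to 0.10, CCND1 -0.16 to 0.17 and COL3A1 -0.10 to 0.29. The causes were not tested. Footprint depth limits the footprint results, and low counts limit the RNA estimates of the regulators other than WT1 and OSR1.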
